A study of Mus musculus with 4 samples.

Results

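Naive-like T cells are T lymphocytes whose transcripts resemble those of cells that have not yet met their antigen. Here they were selected on transcripts measured in single-cell RNA profiles of 4 mouse livers, so the genes used for the selection describe the cells and support nothing. Cells were kept with 500 to 6000 genes detected and no more than 10% of UMIs (unique molecular identifiers, each standing for 1 captured transcript molecule) from mitochondrial genes. The paper words the limits of 500 and 6000 as transcripts, and reading them as UMIs is given below as an alternative. To be a member, a kept cell needed at least 2 UMIs summed over Cd3e and Cd3d, subunits of the T cell receptor complex, and at least 2 UMIs summed over Lef1, Dapl1 and Ccr7. It also needed 0 UMIs of Cxcr6 (tissue-homing T cells), Ncr1 (NK cells), Cd79a (B cells) and Clec4f (Kupffer cells), and under 0.2% of its UMIs from the endothelial genes Pecam1, Kdr, Stab2, Clec4g, Ptprb and Cdh5. These criteria took 664 of 30362 kept cells (2.19%), which came from 44974 barcodes. Among the 2916 kept cells with at least 2 UMIs of Cd3e and Cd3d, called T cells below, the members were 22.8%.

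The study asked how loss of YAP (gene Yap1) and TAZ (gene Wwtr1), the transcriptional co-activators at the end of the Hippo pathway, in liver epithelium affects the whole organ. Livers came from 1 WT mouse without engineered alleles, 1 YAPKO mouse (Alb-Cre, Yap fl/fl), 1 TAZKO mouse (Alb-Cre, Taz fl/fl) and 1 DKO mouse (Alb-Cre, Yap fl/fl, Taz fl/fl), all untreated, and the labels state no age, sex or strain. Cre recombinase under the albumin promoter acts in hepatocytes and biliary epithelial cells, so T cells keep intact Yap1 and Wwtr1 in every genotype. Because 1 mouse stands for each genotype, mouse and genotype are the same thing here, and no test between genotypes was made.

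Naive T cells circulate between blood and lymph nodes, which they enter with the help of the chemokine receptor CCR7 and leave through the sphingosine-1-phosphate receptor S1PR1, whose gene is driven by the transcription factor KLF2. The transcription factors LEF1 and TCF7 maintain their state, and interleukin-7, sensed through IL7R, keeps them alive. In liver they pass through the sinusoids with the blood, beside antigen-experienced T cells that stay in the tissue and carry CXCR6.

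Values given in a run of 4 are in the order WT, YAPKO, TAZKO and DKO. The deposited libraries held 66259687, 85989454, 49022089 and 77411746 UMIs in 13657, 7711, 14418 and 9188 barcodes, of which 7155, 6275, 8638 and 8294 were kept. The members contributed 475968, 1099971, 845961 and 713826 UMIs, with a median per cell of 4500, 4582, 3945.5 and 3369.5 UMIs and of 1483, 1573, 1432 and 1247.5 detected genes. The deepest member of each library had 19240, 34534, 15032 and 37016 UMIs, and such cells weigh more than others in sums of UMIs. Sums of UMIs over the members of a library were scaled to the total of those members (CPM), and 1 UMI is worth 2.10, 0.909, 1.18 and 1.40 CPM. Intervals are exact at 95% (Poisson for sums, conditional binomial for ratios, Clopper-Pearson for shares of cells) and cover counting error only. Pairs of libraries shared between 10 (YAPKO and DKO) and 67 (WT and TAZKO) barcode sequences, none of them belonging to a member in both.

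Yap1 was at 0, 0, 7 and 2 UMIs in the members and Wwtr1 at 0 in all 4 libraries, so these cells hold no check of the genotype labels. In all other kept cells, Yap1 stood at 21.6, 12.9, 34.1 and 10.7 CPM, lower in both libraries labelled with loss of Yap1 than in WT. Wwtr1 stood at 50.2, 49.2, 41.2 and 36.8 CPM there, with its lowest values in the libraries labelled with loss of Taz. Those cells mix types with and without Cre, and tags come from the 3' end of a transcript, so neither level checks the deleted part of a gene.

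Members numbered 99, 197, 200 and 168 of 398, 671, 817 and 1030 T cells. The share was 24.9% in WT (20.7 to 29.4), 29.4% in YAPKO (25.9 to 33.0), 24.5% in TAZKO (21.6 to 27.6) and 16.3% in DKO (14.1 to 18.7), and the DKO interval lies below the other 3. Sums of Lef1, Dapl1 and Ccr7 per member had medians of 7, 5, 5 and 4 UMIs. Members just inside the threshold, with a sum of exactly 2, numbered 9, 30, 35 and 36 (110 in all). Cells just outside, which met every other criterion and had a sum of 1, numbered 25, 30, 34 and 67 (156 in all). With every kept cell thinned to 1000 UMIs before the selection, leaving out 17, 14, 164 and 66 shallower kept cells, the shares became 14.9%, 11%, 11.9% and 7.97%, with YAPKO below WT. The DKO interval (5.85 to 10.6) then overlaps those of WT (10.4 to 20.5), YAPKO (7.97 to 14.7) and TAZKO (8.88 to 15.5).

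**Figure D1:**
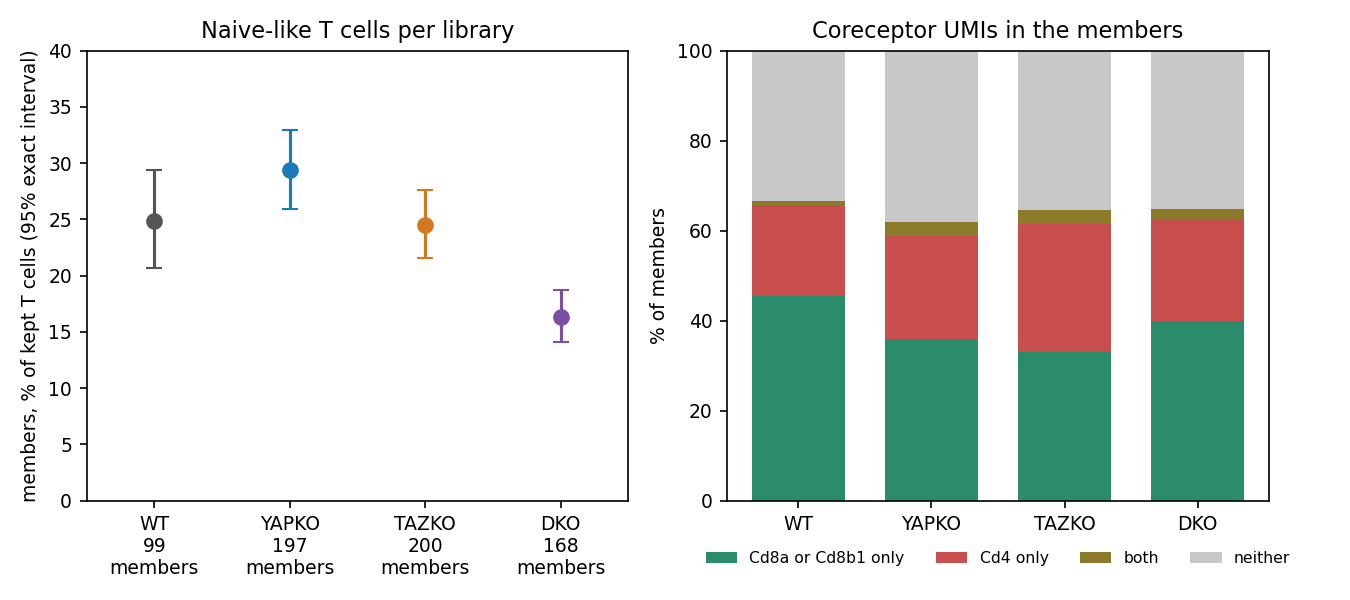
Left, members as a percentage of the kept T cells of each library, with exact 95% intervals, from 16.3% in DKO to 29.4% in YAPKO. Right, percentage of the members with UMIs of CD8 genes only, of Cd4 only, of both or of neither.

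The markers used for the selection were shared by the 4 libraries. Lef1 was at 662, 512, 631 and 579 CPM, against 109, 123, 116 and 112 CPM in Cxcr6-positive T cells of the same libraries. Dapl1, a gene of resting T cells, was at 553, 338, 541 and 356 CPM, and Ccr7 at 391, 312, 303 and 240 CPM. Lef1 was seen in 92, 176, 182 and 152 members, Ccr7 in 74, 132, 128 and 93, and Dapl1 in 50, 86, 109 and 69. Cd3e stood at 513, 557, 512 and 541 CPM.

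Naive T cell genes that the selection did not use were also high in the members. Tcf7 was at 378, 344, 520 and 395 CPM, more than 3 times its level in the Cxcr6-positive cells of every library. Il7r was at 857, 840, 898 and 1023 CPM and Klf2 at 794, 783, 622 and 699 CPM. S1pr1 was at 137, 248, 294 and 212 CPM, against 37.8, 40.1, 41.9 and 23.9 CPM in Cxcr6-positive T cells. These differences from other lymphocytes follow a selection on expression and were not tested.

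Among markers of antigen-experienced and tissue-bound T cells, Ccl5, Il2rb and Itga1 had lower levels than in Cxcr6-positive T cells, and Cd69 had close ones. Cd44 and Nkg7 are set here against B cells only. Ccl5, a chemokine of effector and memory T cells, was at 292, 494, 297 and 605 CPM, against 5629, 4069, 3451 and 5621 CPM in Cxcr6-positive T cells. Il2rb, the receptor chain for interleukins 2 and 15, was at 27.3, 70.0, 83.9 and 95.3 CPM, against 451, 483, 727 and 462 CPM. Itga1, an integrin chain of tissue-resident cells, was at 0, 1.82, 9.46 and 7 CPM, against 106, 77.7, 165 and 86.7 CPM. The activation marker Cd44 was at 4.20, 20.9, 22.5 and 28.0 CPM, below its level in B cells in each library. The cytotoxic granule gene Nkg7 was at 439, 381, 253 and 396 CPM and was seen in 43.4%, 37.6%, 29.5% and 41.1% of members, against at most 0.733% of B cells. Cd69, an early activation and retention marker, was at 179, 208, 176 and 143 CPM, close to the 133, 214, 164 and 179 CPM of Cxcr6-positive T cells.

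**Figure D2:**
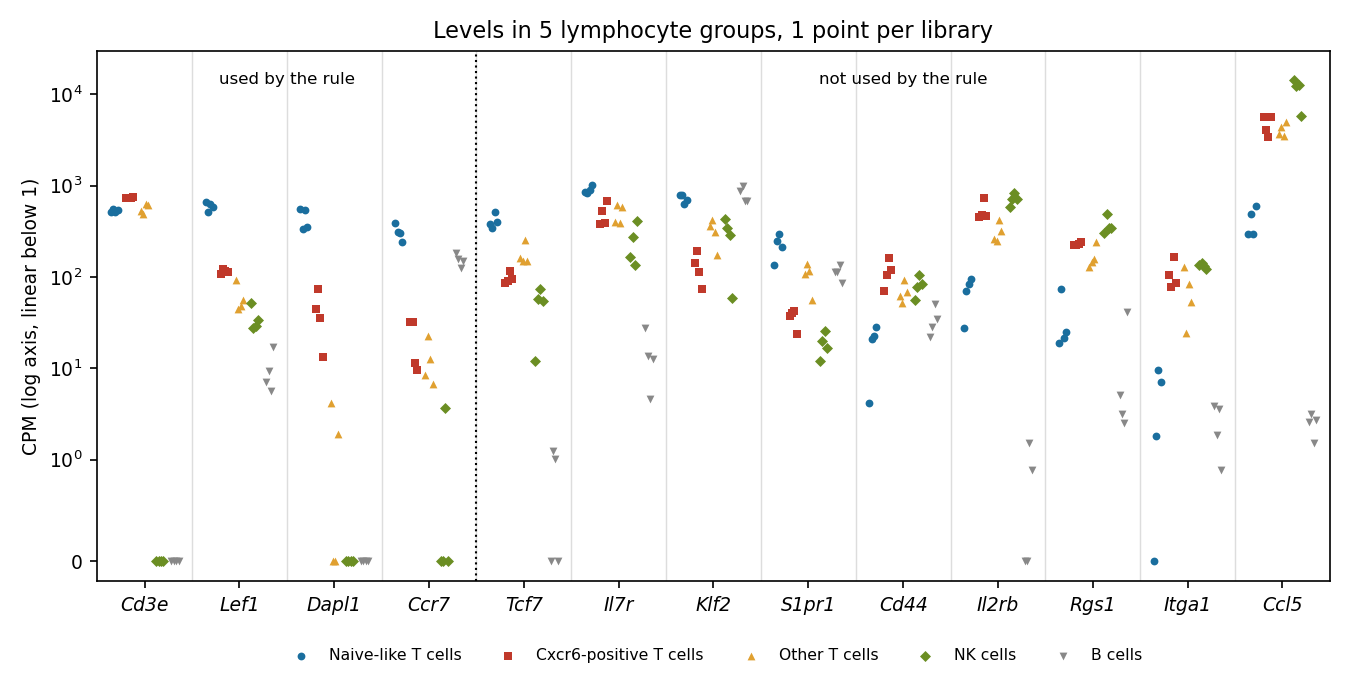
Levels in CPM (log axis, linear below 1) of 13 genes in 5 groups of lymphocytes, with 1 point per library. Cd3e, Lef1, Dapl1 and Ccr7, left of the dotted line, were used for the selection, while Tcf7, Il7r, Klf2 and S1pr1 were not and were also higher in the members than in Cxcr6-positive T cells in all 4 libraries.

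Shares of cells with a UMI were read against B cells, which lack most T cell genes and had median depths of 2944, 2883, 2861 and 2189 UMIs. Il7r was seen in 81.8%, 86.8%, 83.0% and 88.1% of members and in 1.23%, 1.71%, 1.25% and 2.43% of B cells. After thinning to 1000 UMIs, Il7r was seen in 48.5%, 56.3%, 46.5% and 62.5% of members. Trac, the constant segment of the alpha chain of the T cell receptor, was seen in 87.9%, 95.9%, 75% and 78.6% of members and in at most 0.246% of B cells. Cd44 was seen in 2.02%, 8.12%, 6.50% and 7.14% of members and in 5.90%, 7.33%, 12.7% and 9.73% of B cells.

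Small groups of members carried genes of other T cell states. Foxp3, the transcription factor of regulatory T cells, was seen in 0, 11, 3 and 3 members and in 0 B cells of any library. Ikzf2 (Helios), also a regulatory T cell factor, was seen in 3, 19, 14 and 21 members, or 3.03%, 9.64%, 7% and 12.5%, and in at most 0.358% of B cells. Trdc, the constant segment of the delta chain that marks gamma-delta T cells, was seen in 3, 5, 8 and 6 members. Ccl5 was seen in 7.07%, 11.7%, 12.0% and 9.52% of members, and in WT the cell with the most UMIs held 39.6% of them.

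CD8 and CD4 T cells recognise antigen on MHC class I and class II, and their coreceptor genes were not part of the selection. Members with UMIs of Cd8a or Cd8b1 and none of Cd4 numbered 45, 71, 66 and 67, or 45.5%, 36.0%, 33.0% and 39.9%. Members with Cd4 only numbered 20, 45, 57 and 38, or 20.2%, 22.8%, 28.5% and 22.6%. A further 1, 6, 6 and 4 members had both, and 33, 75, 71 and 59 had neither. Of the CD8 and CD4 members together, CD8 made up 69.2% in WT (56.6 to 80.1), 61.2% in YAPKO (51.7 to 70.1), 53.7% in TAZKO (44.4 to 62.7) and 63.8% in DKO (53.9 to 73.0). These intervals overlap. At 1000 UMIs per member the values were 80.0%, 78.2%, 70.8% and 78.3%, with TAZKO again lowest. The share is not free of the selection, which used Dapl1. With at least 2 UMIs of Lef1 and Ccr7 required and Dapl1 left out, CD8 made up 65.5%, 58.7%, 51.4% and 62.6%, each below the value with Dapl1.

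Within the 4 libraries, CD8 members had higher levels of Nkg7, Runx3 and Ctsw than CD4 members of the same mouse. This is the comparison that the design allows to be tested, since the 4 mice are its replicates, with the library as a block so that CD8 and CD4 members are paired within a mouse. Among 3149 genes tested on UMIs summed per library and subset (edgeR quasi-likelihood test, Benjamini-Hochberg adjusted p under 0.05), 11 differed (0.349%), 7 higher in CD8 (0.222%) and 4 higher in CD4 members (0.127%), each with the same sign in 4 of 4 libraries. Cd4, Cd8a and Cd8b1, which defined the subsets, were left out. An unadjusted p under 0.05 was reached by 225 genes.

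Nkg7, which encodes a protein of cytotoxic granules, was at 817, 914, 505 and 724 CPM in CD8 members and at 0, 3.65, 24.9 and 37.7 CPM in CD4 members. Its log2 fold change was 5.47 (SE 0.51, adjusted p = 0.00222, edgeR). Runx3, the transcription factor that sets the CD8 lineage and silences Cd4, was at 95, 164, 308 and 183 CPM in CD8 members and at 0, 25.6, 58.1 and 37.7 CPM in CD4 members (log2 fold change 2.63, SE 0.32, adjusted p = 0.00606, edgeR). Ctsw, a protease of cytotoxic lymphocytes (cathepsin W), was at 409, 373, 93.6 and 153 CPM against 56.5, 95, 29.0 and 37.7 CPM (2.18, SE 0.25, adjusted p = 0.00520, edgeR). All 4 libraries were higher in CD8 members for each of these genes.

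The remaining genes higher in CD8 members were Ly6c2, Fam241a, Ctla2a and Dnajc15. Ly6c2 is a surface protein of CD8 T cells and monocytes. It was at 528, 469, 288 and 210 CPM against 0, 0, 24.9 and 0 CPM (log2 fold change 5.51, SE 0.60, adjusted p = 0.00492, edgeR). Fam241a had a log2 fold change of 3.24 (SE 0.49, adjusted p = 0.0235, edgeR), with 330, 192, 46.8 and 72.1 CPM in CD8 members. Ctla2a, an inhibitor of cathepsin-like proteases, had 2.72 (SE 0.43, adjusted p = 0.0261), and Dnajc15, a mitochondrial co-chaperone, had 1.58 (SE 0.26, adjusted p = 0.0271, edgeR).

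Higher in CD4 members were Ly6c1, Tesc, Tspan32 and Tbc1d4. Ly6c1 was at 0, 2.41, 10.0 and 0 CPM in CD8 members and at 90.3, 69.4, 49.8 and 98.1 CPM in CD4 members (log2 fold change -4.30, SE 0.64, adjusted p = 0.0235, edgeR), the opposite of its neighbour Ly6c2. Ly6c1 and Ly6c2 are near-identical copies on chromosome 15, so how the counting splits their reads makes both values uncertain. Tspan32, a tetraspanin of the naive gene list, was at 33.0, 38.5, 36.8 and 42.1 CPM against 192, 117, 141 and 166 CPM (-1.89, SE 0.26, adjusted p = 0.0164, edgeR). The calcium-binding protein gene Tesc had -1.99 (SE 0.31, adjusted p = 0.0235, edgeR). Tbc1d4, whose product holds glucose transporters inside the cell until it is phosphorylated, had -1.85 (SE 0.30, adjusted p = 0.0271, edgeR).

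**Figure D3:**
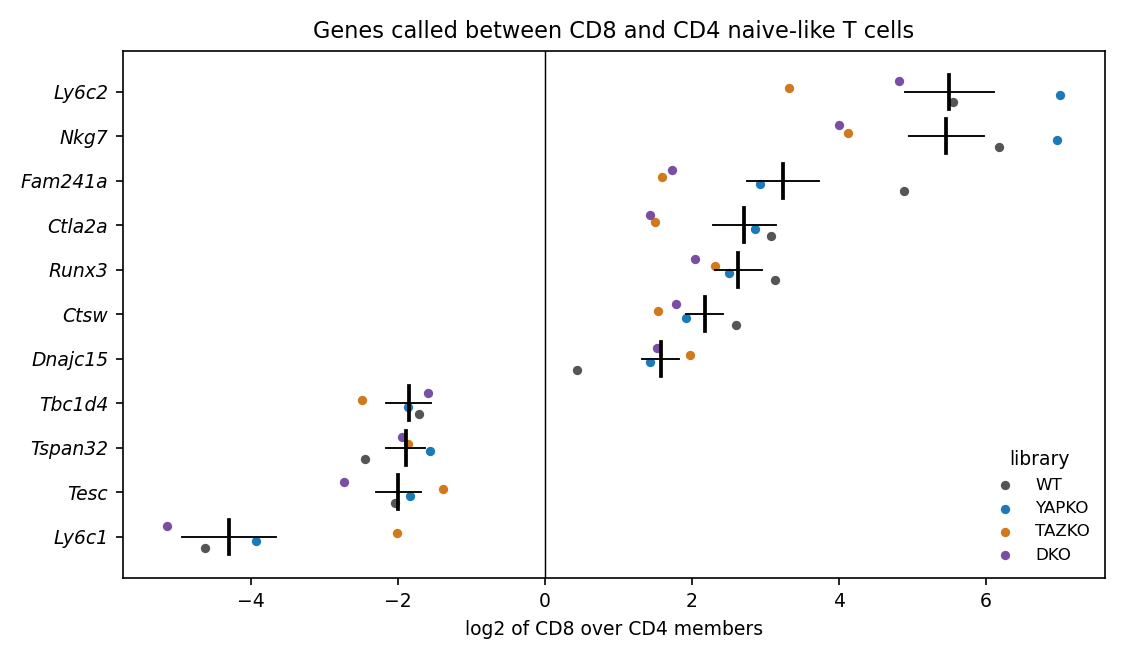
Log2 of the level in CD8 members over that in CD4 members for the 11 genes called, with 1 point per library. Vertical marks are the edgeR estimates and horizontal lines their standard errors, from 5.51 for Ly6c2 to -4.30 for Ly6c1, with all 4 libraries on the same side of 0 for each gene.

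Of 19 naive genes tested, 0 were higher in CD8 and 1, Tspan32, in CD4 members, with a median of -0.20 against -0.00 over all genes. That list holds Lef1, Dapl1 and Ccr7, which every member was selected on, so it cannot show whether the subsets differ in the naive state. Il7r, which was not used for the selection, had a log2 fold change of 0.25 (adjusted p = 0.846, edgeR). Of the list of CD8 genes 3 of 5 tested were called (median 2.63), and of effector and memory genes 2 of 9 (Nkg7 and Ly6c2, median 0.84). The list of CD8 genes also holds Dapl1, a gene of the selection. Dapl1 was not called, and its log2 fold change ran from 0.62 to 1.22 over the alternatives. Of the list of CD4 and regulatory genes 0 of 5 tested were called, although the median was -1.34 and Izumo1r (-2.21, adjusted p = 0.0724) and Trat1 (-2.01, adjusted p = 0.0757, edgeR) came near the threshold. In the other lists 0 genes were called.

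The number of genes called between CD8 and CD4 members rests on few cells and varies with each library: it was 2 without WT, 6 without YAPKO, 4 without TAZKO and 18 without DKO. Without the replicate block that pairs the subsets within a mouse, 4 genes were called. In YAPKO the CD4 sum of 273826 UMIs included cells of 34534 and 31052 UMIs. Nkg7 passed in 10 of 10 alternatives, Ly6c2 in 9, Ctsw and Runx3 in 8 each and Tspan32 in 7, and Ly6c1 passed in 7 of 9. Tesc, Tbc1d4 and Dnajc15 passed in only 5 of 10, Fam241a in 5 of 9 and Ctla2a in 4 of 9. Their log2 fold changes ran from -2.20 to -1.67 for Tesc, -2.55 to -1.67 for Tbc1d4 and 1.36 to 1.79 for Dnajc15. For Fam241a they ran from 2.70 to 3.59 and for Ctla2a from 2.30 to 2.99.

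Between genotypes, each knockout library was compared with the same WT library, so the 3 comparisons share its counts and are given side by side. Ratios are log2 ratios of CPM with 1 added to each count, for genes with at least 50 UMIs over both libraries, and a gene past 2-fold in either direction is counted. In YAPKO 187 of 3612 genes were past 2-fold (5.18%), 132 higher (3.65%) and 55 lower (1.52%). In TAZKO 363 of 3216 were past 2-fold (11.3%), 286 higher (8.89%) and 77 lower (2.39%). In DKO 222 of 2941 were past 2-fold (7.55%), 187 higher (6.36%) and 35 lower (1.19%). Counts of list genes past 2-fold given below are to be read against these shares. Median ratios over all measured genes were 0.13, 0.10 and 0.13. With DESeq2 size factors in place of total UMIs they became 0.01, -0.07 and -0.05, and the share of genes past 2-fold that were higher went from 70.6% to 59.2% in YAPKO, from 78.8% to 54.0% in TAZKO and from 84.2% to 72.4% in DKO. In 14, 6 and 32 of the higher genes 1 cell held at least 50% of the UMIs of the knockout library.

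Of 18 measured naive genes in YAPKO 0 were past 2-fold, with a median of -0.18 against 0.13 for all genes, and 4 were above 0. The naive median was 0.08 with the limits on cells read as UMIs. Over all lists, 15 of 24 medians in YAPKO, 13 of 23 in TAZKO and 13 of 23 in DKO changed sign in at least 1 alternative. Lef1, Dapl1 and Ccr7 are part of this list in each comparison, and as genes of the selection their ratios say nothing about the naive state. The lowest ratio was that of Il6ra (-0.88), a receptor subunit for interleukin 6. S1pr1 had the highest ratio of that list, 0.85 (0.47 to 1.28). Of 20 genes of the T cell receptor complex and its signalling, all measured, 0 were past 2-fold and the median was 0.09. Every member was selected on Cd3e and Cd3d, subunits of this complex, so the ratios of these genes support nothing in any comparison. Dapl1 is also part of the list of CD8 genes and Ccr7 of the homing list, so neither list is free of the selection in any comparison. Trac stood at 571 CPM in WT and 837 CPM in YAPKO (0.55, 0.35 to 0.75).

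The 5 genes with the highest ratio in YAPKO, among genes at least as abundant in the members as in other cells, were H1f5, Ube2c, H2ac8, Top2a and Tnfrsf4. That abundance is the mean of the 4 libraries, and in WT H1f5, Ube2c, H2ac8 and Top2a were at 0, 0, 6.30 and 6.30 CPM in members against 35.2, 22.0, 45.2 and 30.9 CPM in other kept cells. H1f5, a linker histone made during DNA replication, had 0, 227, 21 and 59 UMIs. Its log2 ratio in YAPKO had a lower limit of 4.72, but the YAPKO UMIs lay in 5 cells and 48.9% of them in 1 cell. Ube2c, a ubiquitin-conjugating enzyme of mitosis, had 0, 66, 37 and 69 UMIs. The lower limit of its log2 ratio in YAPKO was 2.91, with 93.9% of the YAPKO UMIs in 1 cell. The replication-dependent histone gene H2ac8 had 3, 142, 85 and 41 UMIs (log2 ratio in YAPKO 3.95, 2.78 to 6.65), and the DNA topoisomerase gene Top2a 3, 78, 57 and 51 (3.10, 1.89 to 5.80). In all other kept cells the YAPKO ratios of H1f5, H2ac8 and Top2a were 0.82, 0.06 and 0.40. Tnfrsf4 (OX40), a costimulatory receptor of activated and regulatory T cells, had 4, 96, 6 and 17 UMIs (3.07, 1.97 to 5.28), seen in 4, 14, 4 and 6 cells, with 50% of the YAPKO UMIs in 1 cell.

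Of 8 measured genes of the CD4 and regulatory list in YAPKO 4 were higher, Tnfrsf4 among them, and 0 lower, with a median of 0.71. That median was 0.34 with at least 3 UMIs of Lef1, Dapl1 and Ccr7, 0.32 without candidate doublets, 0.22 without dividing members and -0.07 among CD8 members. Ikzf2 was at 16.8, 73.6, 65.0 and 102 CPM (1.98 in YAPKO, 1.08 to 3.39), and Icos, an inducible costimulatory receptor, at 21.0, 65.5, 34.3 and 60.2 CPM (1.52, 0.68 to 2.76). Izumo1r, the folate receptor 4 of regulatory and resting CD4 T cells, was at 52.5, 115, 55.6 and 53.2 CPM (1.09, 0.51 to 1.82), within 2-fold (0.98) with DESeq2 size factors. Cd4 itself was at 63.0 and 64.5 CPM in WT and YAPKO, a ratio of 0.01 (-0.60 to 0.70).

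Lowest in YAPKO by the same rule were Rsrp1, Lncpint, Tagap, Slco3a1 and Il17ra. Rsrp1, a gene for a nuclear protein rich in arginine and serine, was at 903, 287, 474 and 405 CPM (-1.65 in YAPKO, -1.87 to -1.44), with WT the highest of the 4 libraries, and its ratio in other kept cells was -0.66. Lncpint, a long non-coding RNA, was at 69.3 and 23.6 CPM in WT and YAPKO (-1.54, -2.35 to -0.77). Tagap, a gene of activated T cells, was at 71.4, 26.4, 91.0 and 33.6 CPM (-1.43, -2.20 to -0.68). The transporter gene Slco3a1 had a ratio of -1.33 (-2.05 to -0.62), and Il17ra, a subunit of the interleukin-17 receptor, of -1.24 (-1.91 to -0.58). In other kept cells the ratios of Tagap, Slco3a1 and Il17ra in YAPKO were 0.51, 0.50 and 0.62, on the other side of 0.

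Of 16 measured immediate early and stress genes in YAPKO 1 was higher and 2 were lower, with a median of 0.20. Hspa1b, which encodes a form of the inducible chaperone HSP70, was at 208, 12.7, 139 and 79.9 CPM (-3.95 in YAPKO, -4.95 to -3.22), and Dnajb1, a co-chaperone of HSP70, at 81.9, 39.1, 96.9 and 60.2 CPM (-1.07, -1.73 to -0.40). Hspa1a, the near-identical neighbour of Hspa1b, had 46, 1, 27 and 14 UMIs, with 56.5% of the WT UMIs in 1 cell. The split of reads between Hspa1a and Hspa1b is uncertain. The higher gene was Dusp2 (1.56, 0.85 to 2.53), a phosphatase of MAP kinases. In other kept cells Hspa1b had a YAPKO ratio of -4.12.

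Of 11 measured metabolism and growth genes in YAPKO 0 were past 2-fold and all were above 0, with a median of 0.49. That median was 0.12 with the limits on cells read as UMIs and 0.34 without candidate doublets. Ncl, the nucleolar protein nucleolin, was at 311, 619, 384 and 440 CPM (0.99 in YAPKO, 0.74 to 1.26), and the glycolytic enzyme gene Gapdh at 519, 808, 355 and 566 CPM (0.63, 0.43 to 0.85). Of 12 effector and memory genes 3 were higher and 0 lower, Il2rb (1.27, 0.50 to 2.33), S100a4 (1.27, 0.63 to 2.09) and S100a6 (1.54, 1.17 to 1.98). Their list had a median of 0.29, or -0.11 with the limits read as UMIs and -0.06 with at least 3 UMIs of Lef1, Dapl1 and Ccr7. In WT 1 cell held 95% of the S100a4 UMIs and 61.0% of the S100a6 UMIs.

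Quiescence genes, which restrain growth of resting T cells, had in YAPKO 1 of 13 lower, the antiproliferative gene Tob1 (-1.07, -1.85 to -0.27). The quiescence median was -0.25, but 0.15 with the limits read as UMIs and 0.13 among CD8 members. The glucocorticoid-induced gene Tsc22d3, at 777, 515, 294 and 443 CPM, had -0.60 (-0.79 to -0.40). Interferon-stimulated genes had 1 of 24 higher, Isg15 (29.4 CPM in WT and 88.2 CPM in YAPKO), and a median of -0.03. MHC class I genes (12 measured), homing and adhesion genes (14) and Hippo genes (5) had 0 past 2-fold and medians of 0.04, -0.00 and -0.09, cytokine receptors 1 of 11 higher (Il2rb) and a median of -0.02, and CD8 genes 0 of 6 and -0.25. With 3 genes measured, the residency list had Rgs1 higher (1.83, 0.97 to 3.14) and a median of 0.89. The medians of T cell receptor genes and of MHC class I genes fall below 0 with DESeq2 size factors, at -0.03 and -0.07. That scaling also puts the homing gene Itga6 (-1.05) past 2-fold lower.

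In TAZKO more genes were past 2-fold, and ribosomal protein genes with near-identical copies had the largest ratios in either direction. Rps3a3, annotated as a processed pseudogene on chromosome 13 (chr13:108670603-108671397, plus strand, GRCm38.p6), had 1, 1, 3806 and 3517 UMIs, or 2.10, 0.909, 4499 and 4927 CPM. Its parent Rps3a1 (chr3:86137940-86142702, minus strand), which encodes a protein of the small ribosomal subunit, had 3228, 6874, 352 and 348 UMIs, or 6782, 6249, 416 and 488 CPM. The log2 ratios of Rps3a3 were 10.06 in TAZKO (8.59 to 16.37) and 10.20 in DKO (8.72 to 16.50), and those of Rps3a1 were -4.02 (-4.19 to -3.87) and -3.79 (-3.96 to -3.64). Other kept cells showed the same split, with ratios of 11.06 and 11.29 for Rps3a3 and of -3.59 and -3.43 for Rps3a1. Rps3a3 took 0.0310%, 0.0145%, 91.5% and 91.0% of the UMIs of the pair. Summed, the pair stood at 6784, 6250, 4915 and 5414 CPM, with ratios of -0.12, -0.46 and -0.33.

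The Rps3a3 gene matches the coding sequence of Rps3a1 over 795 bases with 9 differences (98.9% identical), so the counting can assign reads of either to the other, and both values are uncertain. Counted from 1 at the A of the start codon, with the base of Rps3a1 first, the differences are T216C, T260C, C363T, A427T, T534C, G582T, A660G, C762T and G792A. The stretch from base 521 to base 795, which ends at the stop codon, is shown because it lies nearest the 3' end and holds 5 of the 9 differences, in capitals.
Rps3a1: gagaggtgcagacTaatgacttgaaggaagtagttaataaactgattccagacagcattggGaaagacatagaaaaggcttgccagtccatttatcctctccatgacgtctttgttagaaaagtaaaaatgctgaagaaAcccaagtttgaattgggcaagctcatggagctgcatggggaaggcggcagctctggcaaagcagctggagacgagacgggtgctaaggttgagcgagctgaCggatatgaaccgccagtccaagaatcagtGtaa
Rps3a3: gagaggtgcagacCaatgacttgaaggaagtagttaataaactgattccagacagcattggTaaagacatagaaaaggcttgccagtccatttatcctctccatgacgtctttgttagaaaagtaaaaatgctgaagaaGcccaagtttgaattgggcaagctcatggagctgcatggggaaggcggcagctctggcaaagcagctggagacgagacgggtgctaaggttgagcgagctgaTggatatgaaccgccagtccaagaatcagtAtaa
Each library carried mainly 1 of these copies in members and in all other kept cells alike: Rps3a1 in WT and YAPKO, and Rps3a3 in TAZKO and DKO. Whether the livers differ in the genomic copy, or only in how reads were assigned, was not tested.

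Other copies followed their own split between libraries. Rps15a-ps8, a processed pseudogene on chromosome 4 that is 92.2% identical to Rps15a over 387 bases, had 3, 15, 469 and 761 UMIs (6.05 in TAZKO, 4.90 to 8.74). Gm8420, Gm14094 and Gm5292, processed pseudogenes on chromosomes 1, 2 and 5, match Rpl15 with 96.6%, 94.6% and 95.5% identity over 596, 615 and 487 bases. Gm8420 had 528, 1386, 2 and 541 UMIs (-8.29 in TAZKO, -11.92 to -7.01), Gm14094 169, 405, 1 and 205 (-7.24, -13.54 to -5.73) and Gm5292 68, 145, 2 and 79 (-5.35, -8.99 to -4.01). Rpl15 itself was at 643, 509, 1177 and 693 CPM, highest where its copies were near 0. All 4 genes summed to 2250, 2269, 1183 and 1849 CPM, a TAZKO ratio of -0.93. These values are uncertain for the same reason, and other kept cells had TAZKO ratios of 7.38 for Rps15a-ps8 and -9.27, -7.93 and -5.79 for the copies of Rpl15.

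Among the other genes named for TAZKO, Gdpd3, which encodes a glycerophosphodiesterase, was at 508, 355, 48.5 and 266 CPM (-3.36 in TAZKO, -3.91 to -2.91), with TAZKO the lowest library and a ratio of -2.12 in other kept cells. Hist1h2ap, a histone H2A gene, had 5, 98, 157 and 71 UMIs (3.89, 2.89 to 5.79), with 56.7% of the TAZKO UMIs in 1 cell, and H2ac8 had a TAZKO ratio of 3.60 (2.40 to 6.30). Histone H2A genes are near-identical copies of each other, so the values of both are uncertain. Xcl1, a chemokine of activated CD8 T and NK cells, had 4, 25, 85 and 6 UMIs (3.27, 2.17 to 5.49), with 67.1% of the TAZKO UMIs in 1 cell. With at least 3 UMIs of Lef1, Dapl1 and Ccr7 required, the ratio of Xcl1 was -0.66.

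Of 20 T cell receptor genes 2 were higher in TAZKO, where 8.89% of all measured genes were higher, so the count is near the share of all genes. Lcp2, the adaptor SLP-76 that links the receptor to its kinases, was at 42.0, 78.2, 116 and 99.5 CPM (1.41 in TAZKO, 0.76 to 2.24), and the kinase gene Fyn at 92.4, 137, 200 and 118 CPM (1.09, 0.63 to 1.62). The other genes of that list were within 2-fold, and the median was -0.12. Of 20 naive genes 3 were higher, S1pr1 (1.09, 0.71 to 1.52), Als2cl (1.91, 1.03 to 3.24) and the gut-homing receptor gene Ccr9 (1.04, 0.16 to 2.24), and 0 lower, with a median of 0.10. Satb1, a chromatin organiser of T cells, was at 321, 297, 606 and 381 CPM (0.91, 0.65 to 1.19), just within 2-fold. S1pr1, Ccr9 and the integrin gene Itgal (1.14, 0.51 to 1.91) were also the 3 of 13 homing genes that were higher, with a median of 0.00. With DESeq2 size factors, which lower each TAZKO ratio by the same amount, Fyn (0.92), S1pr1 (0.92), Ccr9 (0.87) and Itgal (0.97) are within 2-fold.

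Runx3 was at 63.0, 83.6, 167 and 125 CPM in all members (1.37 in TAZKO, 0.83 to 2.02) and, with Xcl1 and Ccr9, made up the 3 of 8 CD8 genes that were higher (median -0.07), while Cd8b1 was at 578, 474, 371 and 441 CPM (-0.64, -0.88 to -0.40). Of 7 CD4 and regulatory genes 3 were higher, Ikzf2 (1.81, 0.87 to 3.23), the CD40 ligand gene Cd40lg (1.81, 0.87 to 3.23) and the receptor-associated adaptor gene Trat1 (1.12, 0.55 to 1.81), with a median of 0.76. Of 9 effector and memory genes 3 were higher, Il2rb (1.53, 0.75 to 2.60), S100a4 (1.22, 0.56 to 2.06) and Id2 (1.27, 0.83 to 1.78), an inhibitor of E proteins, with a median of 0.02. That effector median was -0.88 with at least 3 UMIs of Lef1, Dapl1 and Ccr7, -0.62 without dividing members, -0.39 with the limits read as UMIs and 0.60 without candidate doublets. Il2rb was also the 1 of 10 cytokine receptors past 2-fold (median 0.14).

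Of 11 measured MHC class I genes in TAZKO 0 were past 2-fold, 2 were above 0 and the median was -0.73, against 0.10 for all genes. H2-D1, a classical class I heavy chain, was at 2221, 2207, 1161 and 1598 CPM (-0.94 in TAZKO, -1.06 to -0.81), and the immunoproteasome gene Psmb8 at 557, 699, 319 and 447 CPM (-0.80, -1.05 to -0.55). H2-Q7, at 626, 614, 313 and 416 CPM, came just inside the threshold and belongs to a family of near-identical genes, so its value is uncertain. The light chain gene B2m was at 2630, 2619, 2856 and 2403 CPM (0.12, 0.02 to 0.22). With DESeq2 size factors H2-D1 (-1.11), H2-Q7 (-1.17) and Psmb10 (-1.06) are past 2-fold. H2-D1 had a TAZKO ratio of -0.39 in other kept cells.

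Quiescence genes in TAZKO had 1 of 13 lower, Tsc22d3 (-1.40, -1.64 to -1.17), and a median of 0.10. Metabolism and growth genes had 0 of 10 past 2-fold and a median of -0.37, and interferon-stimulated genes 1 of 19 higher, the guanylate-binding protein gene Gbp7 (1.11, 0.47 to 1.90), with a median of -0.08. Of 15 immediate early and stress genes Jun was higher (1.06, 0.51 to 1.73) and Hspa1a lower (-1.58, -2.34 to -0.88), with a median of -0.00. Among 5 Hippo genes the kinase gene Taok1 was higher (1.04, 0.29 to 1.99), and the median was 0.77. The residency and gamma-delta lists had 2 measured genes each, of which Rgs2 (1.66, 0.66 to 3.22) and Il18r1 (1.52, 0.61 to 2.85) were higher, with medians of 0.82 and 0.58. The residency median was -0.03 with the limits read as UMIs, -0.13 with at least 3 UMIs of Lef1, Dapl1 and Ccr7 and 0.07 without candidate doublets, and the gamma-delta median -0.35 without dividing members. With DESeq2 size factors the TAZKO medians of naive, quiescence, effector, cytokine receptor and homing genes fall below 0, at -0.07, -0.07, -0.15, -0.03 and -0.17, and Trat1, Gbp7, Jun and Taok1 are within 2-fold. The same scaling puts Klrd1 (-1.11), Ly6c2 (-1.10), Igfbp4 (-1.14), Aldoa (-1.17), Tnfrsf18 (-1.14), Ier5 (-1.03) and Nfkbia (-1.03) past 2-fold lower in TAZKO.

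Of 9 effector and memory genes in DKO 6 were higher and 2 lower, with a median of 1.20, or 0.64 with at least 3 UMIs of Lef1, Dapl1 and Ccr7. Il2rb had a DKO ratio of 1.72 (0.93 to 2.78) and Id2, at 101, 117, 247 and 305 CPM, of 1.58 (1.14 to 2.08). Itgb1, the integrin beta 1 chain, was at 71.4, 125, 95.7 and 178 CPM (1.29, 0.76 to 1.91), Ccl5 had 1.04 (0.77 to 1.34), S100a4 1.23 (0.55 to 2.08) and S100a6 1.20 (0.80 to 1.66). In DKO 1 cell held 149 of the 432 Ccl5 UMIs. The lower genes were Ly6c2, at 269, 192, 141 and 120 CPM (-1.15, -1.57 to -0.75), and the NK receptor gene Klrd1, at 168, 145, 87.5 and 77.0 CPM (-1.12, -1.65 to -0.61). For both, WT was the highest and DKO the lowest library. With DESeq2 size factors Ccl5 (0.86) is within 2-fold.

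Of 18 naive genes in DKO 0 were higher and 1 lower, Igfbp4, which encodes a binding protein of insulin-like growth factors, at 637, 515, 324 and 259 CPM (-1.29 in DKO, -1.57 to -1.03), and the median was -0.11. With the limits read as UMIs the naive median was 0.07 and that of quiescence genes 0.26. In DKO 25.9% of the Igfbp4 UMIs lay in 1 cell. Il7r had a DKO ratio of 0.25 (0.08 to 0.43). Of 20 T cell receptor genes 1 was higher, Lcp2 (1.19, 0.51 to 2.04), with a median of -0.14. Of 7 CD4 and regulatory genes 2 were higher, Ikzf2 (2.45, 1.55 to 3.87) and Icos (1.42, 0.50 to 2.68), with a median of 0.27, and of 6 CD8 genes 0 were higher and Ly6c2 was lower, with a median of -0.27.

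The genes with the highest DKO ratios by the naming rule were Rps3a3, Car1, Retnla, Rps15a-ps8 and Ube2c. WT members had Car1, Retnla and Ube2c at 0 CPM, against 1.41, 18.8 and 22.0 CPM in other kept cells of WT. These genes met the abundance rule only through other libraries. Car1, a carbonic anhydrase, had 0, 0, 1 and 235 UMIs, with a lower limit of 5.40 for its log2 ratio in DKO. Retnla, a secreted resistin-like protein, had 0, 0, 0 and 220 UMIs, with a lower limit of 5.30. In DKO all UMIs of Car1 lay in 1 cell, and so did all those of Retnla, and without the cell with the most UMIs the ratios were -0.54 and -0.58. Rps15a-ps8 had a DKO ratio of 6.99 (5.85 to 9.68). The lower limit of the DKO ratio of Ube2c was 3.60, with UMIs in 8 cells.

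Lowest in DKO were Gm9625, Gm1966, Trim12a, Rps3a1 and Ndrg3. Gm9625, a processed pseudogene 97.4% identical to Rplp0 over 955 bases, had 54, 65, 45 and 0 UMIs (upper limit of the DKO ratio -4.41). Rplp0 and its copy together stood at 4734, 4068, 2572 and 4844 CPM. Gm1966, an unprocessed pseudogene 92.9% identical to the interferon-inducible GTPase gene Gvin1 over 7297 bases, had 52, 149, 55 and 0 UMIs (upper limit -4.35). Trim12a, a gene of the TRIM family on chromosome 7, as is Gm1966, had 79, 164, 67 and 3 UMIs (-4.91, -7.61 to -3.70). Because each has close relatives, the values of these genes are uncertain, and in other kept cells their DKO ratios were -5.82, -6.63 and -5.94. Ndrg3, of the N-myc downstream-regulated family, had 42, 44, 12 and 12 UMIs (-2.31, -3.45 to -1.44), with a ratio of -0.27 in other kept cells.

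Other lists in DKO had few genes past 2-fold. Interferon-stimulated genes had 0 of 18 higher and 1 lower, Ly6a (-1.09, -1.52 to -0.67), which has near-identical neighbours, with a median of -0.23. MHC class I genes had 0 of 11 past 2-fold and a median of -0.32, with H2-D1 at -0.47 (-0.60 to -0.35). Of 16 immediate early and stress genes Jun was higher (1.06, 0.49 to 1.74) and Hspa1a (-2.23, -3.28 to -1.41) and Hspa1b (-1.37, -1.88 to -0.90) lower, with a median of 0.09. Quiescence (13 measured), homing (12), metabolism (10) and Hippo genes (5) had 0 past 2-fold and medians of -0.03, -0.12, -0.04 and 0.24, and cytokine receptors 1 of 9 higher, Il2rb, and a median of 0.10. The medians of stress genes and cytokine receptors are below 0 with DESeq2 size factors, at -0.10 and -0.09. Jun is then within 2-fold (0.88) and the homing gene Itgb7 (-1.02) past 2-fold lower. The cytokine receptor median was below 0 in 7 of 10 alternatives and the stress median in 2 of 10. Among CD8 members they were -0.32 and -0.29. Cd69 (-0.32) and Trdc (-0.31) were the measured members of the residency and gamma-delta lists.

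**Figure D4:**
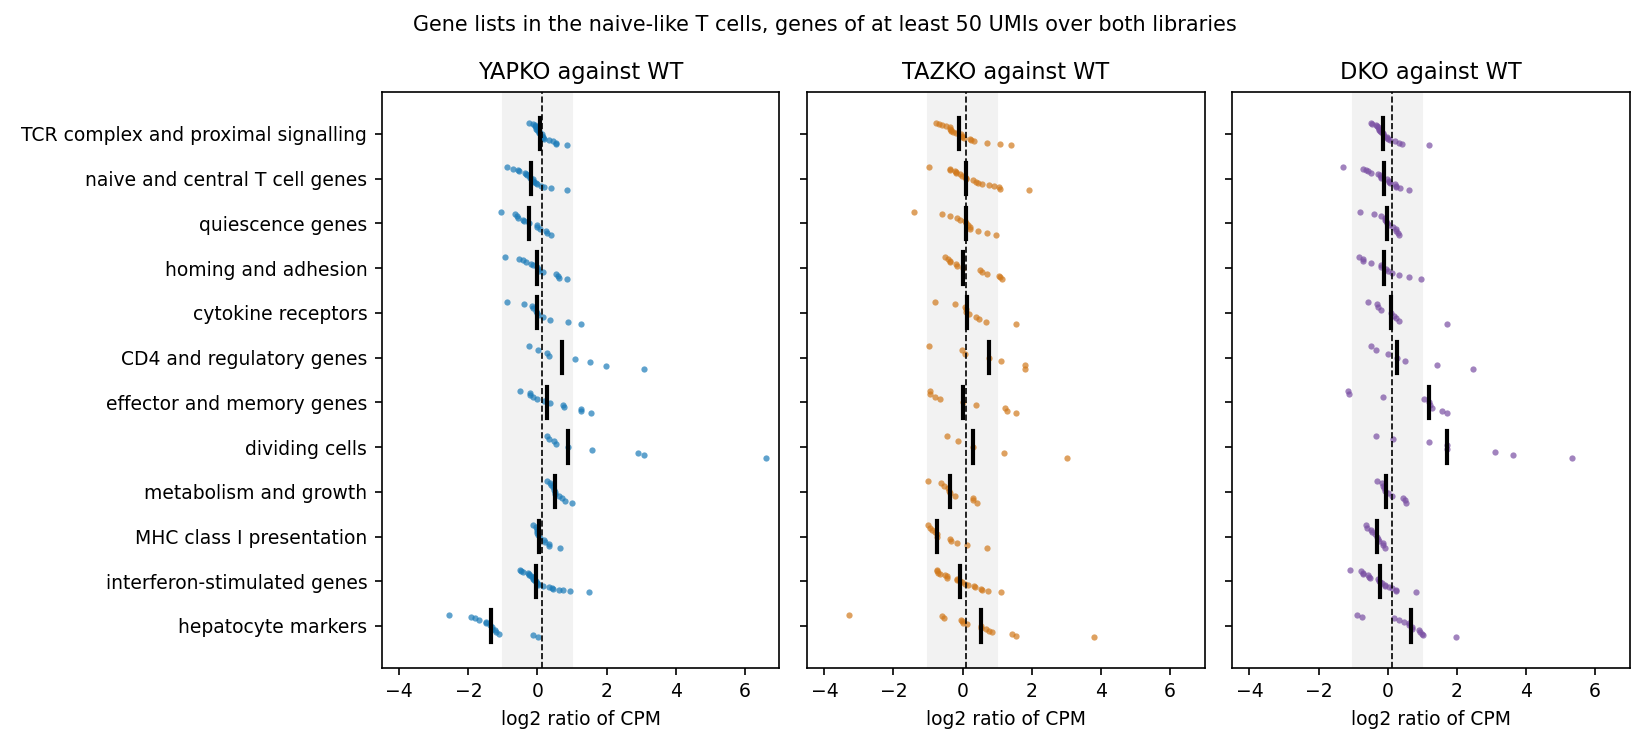
Log2 ratios to WT of single genes (points) in 12 gene lists, for genes with at least 50 UMIs over both libraries, with the median of each list as a black bar, the median of all genes as a dashed line and the range within 2-fold shaded. The list of dividing cells has medians of 0.88 in YAPKO, 0.29 in TAZKO and 1.72 in DKO, and MHC class I presentation has -0.73 in TAZKO.

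Of 14 genes of the list of dividing cells, 9, 5 and 8 were measured in YAPKO, TAZKO and DKO and 4, 2 and 6 were higher, with medians of 0.88, 0.29 and 1.72. These medians depended on the cells taken: they were -0.11, -0.29 and -0.15 with the limits on cells read as UMIs, 0.19, -0.50 and 0.26 with at least 3 UMIs of Lef1, Dapl1 and Ccr7, and 0.21, 0.26 and 1.19 without candidate doublets. Mki67, the proliferation antigen Ki-67, had 2, 51, 30 and 54 UMIs, with a DKO ratio of 3.61 (2.25 to 7.25). Hmgb2, a chromatin protein abundant in cycling cells, was at 244, 453, 565 and 813 CPM (0.88, 1.20 and 1.73). Stmn1, a regulator of microtubules, was at 84.0, 125, 104 and 198 CPM, with a DKO ratio of 1.21 (0.72 to 1.78), and Cenpa, the histone of centromeres, had ratios of 1.58 in YAPKO and 1.71 in DKO.

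A sum over 10 division genes, Mki67, Top2a, Birc5, Pclaf, Tyms, Rrm2, Cdk1, Ccnb2, H1f5 and Cenpa, was at least 3 UMIs in 1, 7, 4 and 8 members, or 1.01%, 3.55%, 2% and 4.76%. Of the 8 DKO members 3 had a sum of exactly 3, and no member of the other libraries did. The intervals, 0.0256% to 5.50% in WT and 2.08% to 9.17% in DKO, overlap. The same threshold was met by 1.23%, 3.18%, 1.43% and 1.52% of B cells. By that choice they held 54.1%, 92.1%, 85.8% and 93.0% of the 37, 619, 219 and 343 UMIs of these genes in the members. Thinned to 1000 UMIs, the shares were 0%, 2.03%, 1% and 1.79%. Without the dividing members, chosen for removal after the data were seen, the genes past 2-fold went from 187 to 124 in YAPKO, from 363 to 338 in TAZKO and from 222 to 127 in DKO. The YAPKO ratio of H2ac8, which is not among these 10 genes, became -0.05.

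**Figure D5:**
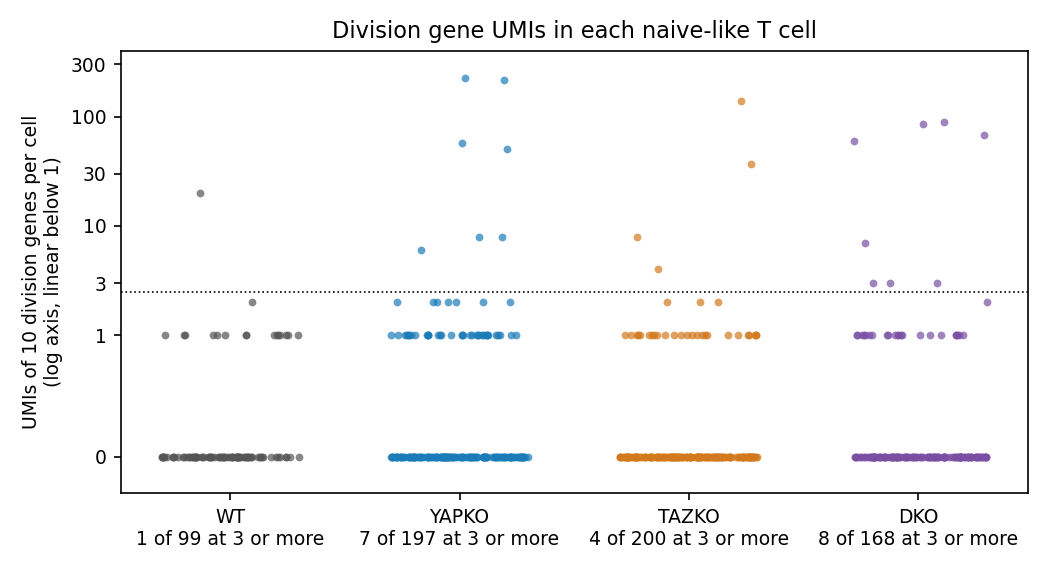
UMIs summed over 10 division genes in each member (points, log axis, linear below 1), by library, with the threshold of 3 UMIs dotted. The number of members at or above it is 1 in WT, 7 in YAPKO, 4 in TAZKO and 8 in DKO.

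Promoters of division genes often hold the letters TTTGAA, or TTCAAA on the other strand, the core of the cell cycle genes homology region. Windows of 300 bases around the start sites of these 10 genes and Ube2c were read from GRCm38.p6, and 7 of 11 held the letters on either strand, against 17.9% of all 32851 promoters read the same way. Top2a, Mki67, Cdk1 and Ccnb2 had 2 matches each and Ube2c, Cenpa and H1f5 had 1. The windows of Top2a (chr11:99024140-99024439, minus strand) and Ube2c (chr2:164769679-164769978, plus strand) are shown, because both genes are named above, with the matches in capitals.
Top2a: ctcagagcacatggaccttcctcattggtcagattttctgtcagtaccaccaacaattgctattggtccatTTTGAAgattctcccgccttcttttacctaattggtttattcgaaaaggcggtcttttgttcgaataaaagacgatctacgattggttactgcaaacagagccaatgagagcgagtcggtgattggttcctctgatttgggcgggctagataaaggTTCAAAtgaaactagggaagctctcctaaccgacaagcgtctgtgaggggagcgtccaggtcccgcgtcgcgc
Ube2c: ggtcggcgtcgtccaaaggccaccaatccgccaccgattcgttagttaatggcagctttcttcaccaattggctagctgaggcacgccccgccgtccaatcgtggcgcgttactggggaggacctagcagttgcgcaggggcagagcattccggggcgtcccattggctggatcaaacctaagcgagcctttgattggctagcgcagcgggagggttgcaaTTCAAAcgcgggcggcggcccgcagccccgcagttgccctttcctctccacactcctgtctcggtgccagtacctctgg
A match describes the letters and is no evidence that a factor binds there.

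Markers of other liver cells were measured in the same members. Of 15 hepatocyte markers all had UMIs in the members, summing to 13709, 4879, 15903 and 20435 CPM, against 108410, 59081, 68761 and 91454 CPM in other kept cells. Mup20, a major urinary protein, was at 3729, 1064, 384 and 5136 CPM, and Alb was seen in 99 of 99, 147 of 197, 200 of 200 and 138 of 168 members. In YAPKO 12 of 14 measured hepatocyte markers were lower and 0 higher (median -1.34), in TAZKO 3 of 15 were higher and 1 lower (0.53), and in DKO 2 of 14 were higher and 0 lower (0.66), with 49.1% of the Alb UMIs of DKO in 1 cell. Alb in DKO (0.84) is within 2-fold and Fgb in DKO (-1.06) past 2-fold with DESeq2 size factors. The DKO median of hepatocyte markers was -1.79 with the limits of 500 and 6000 read as UMIs, -0.02 without dividing members and -0.03 without the member with the most UMIs of each gene, so its sign depends on these choices. With mitochondrial and hepatocyte genes left out of the totals, the medians of all genes were 0.11, 0.10 and 0.14. The part of hepatocyte RNA in the results above was not tested.

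Of 12 Kupffer cell and macrophage markers 11 had UMIs, with Clec4f at 0 by selection, and their sum was 56.7, 426, 195 and 342 CPM. Lyz2, lysozyme of phagocytes, was the most abundant, at 6.30, 154, 55.6 and 256 CPM, with 75.1% of the YAPKO and 72.1% of the DKO UMIs in 1 cell. All measured markers of this list were higher, 4 in YAPKO and 1 each in TAZKO and DKO. Of 7 neutrophil markers 6 had UMIs and summed to 10.5, 283, 93.4 and 102 CPM. S100a9 was the most abundant, with 86.5% of its YAPKO UMIs in 1 cell, and 2 of 2 measured markers were higher in YAPKO. Of 11 NK cell markers 10 had UMIs, with Ncr1 at 0 by selection, and summed to 353, 663, 428 and 600 CPM. Txk, a kinase that naive T cells share, was the most abundant, and 2 of 3 measured markers, Tyrobp and Fcer1g, were higher in YAPKO and in DKO and 0 in TAZKO. In DKO Fcer1g (1.00) is within 2-fold with DESeq2 size factors (0.82). Without candidate doublets the NK marker median went from 1.40 to 0.23 in YAPKO and from 1.00 to -0.02 in DKO. Tyrobp is among the 12 genes by which candidate doublets were picked, so a drop of its ratio there follows from the removal.

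Of 11 B cell markers 7 had UMIs, summing to 1441, 2014, 591 and 1265 CPM, with Cd74 the most abundant and Cd79a (by selection), Ms4a1 and Pax5 at 0 in all 4 libraries. In WT 66.8% and in TAZKO 75.2% of the Cd74 UMIs lay in 1 cell. Ighm of the same list was spread over more cells. It was seen in 54.5%, 62.4%, 49.5% and 37.5% of members, with at most 4, 16, 5 and 5 UMIs in 1 cell. Of 2 measured B cell markers 1 was lower in TAZKO, Cd74 (-1.65, -1.85 to -1.45). Of 9 dendritic cell markers all had UMIs, at 1538, 740, 368 and 509 CPM, led by Cst3 at 1231, 415, 141 and 279 CPM, with 86.0% of the WT UMIs in 1 cell. Of 3 measured dendritic cell markers Cst3 was lower in each comparison, and 1 was higher, Cd209a in YAPKO (1.32) and DKO (1.10) and Ccr9 in TAZKO (1.04). With DESeq2 size factors Cd209a in DKO (0.92) and Ccr9 (0.87) are within 2-fold. Biliary markers, led by Spp1, summed to 12.6, 338, 2.36 and 4.20 CPM, with 94.1% of the YAPKO UMIs of Spp1 in 1 cell and 2 of 2 measured markers higher there. Endothelial markers, limited by the selection, summed to 139, 89.1, 89.8 and 102 CPM, led by Pecam1. Stellate cell markers summed to 8.40, 47.3, 28.4 and 8.41 CPM, led by Ecm1, and platelet and red cell markers to 6.30, 4.55, 3.55 and 9.81 CPM, led by Pf4, and no gene of either list reached the minimum. The part of these cells in the results was not tested.

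No doublet caller was run, and 9, 28, 7 and 12 members (56 in all) carried at least 2 UMIs summed over 12 marker genes of B cells, macrophages, neutrophils and NK cells. These candidate doublets were kept. Without them 93 of 2859 measured genes were past 2-fold in YAPKO (3.25%, 56 of them higher), 327 of 2920 in TAZKO (11.2%) and 193 of 2575 in DKO (7.5%). Among CD8 members alone the counts were 70 of 1521 in YAPKO (4.6%), 140 of 1282 in TAZKO (10.9%) and 179 of 1409 in DKO (12.7%). Differences between mice, libraries and genotypes cannot be told apart with 1 mouse per genotype.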

How the data were processed

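Single-cell RNA was measured in 4 mouse livers (10x Genomics 3' v3.1), 1 per genotype. The deposited matrices hold UMI counts made by the authors with Cell Ranger against mm10, version 6.0.1 by their processing notes and 4.0.0 by the file headers. Members and gene lists were chosen with earlier results of these data known. Genes were matched by symbol, with 5 synonyms. No cell was removed as a doublet, and candidate doublets (at least 2 UMIs over 12 markers) were left out as an alternative. UMIs were summed over the members of each library, and ratios to WT used CPM with 1 added to each count, for genes with at least 50 UMIs over both libraries. For named genes with 0 UMIs in a compared library, the finite limit of the exact interval was given in place of the ratio. The genes named per comparison are the 5 with the largest ratio in each direction among genes past 2-fold and at least as abundant in the members as in other kept cells. For CD8 against CD4 members up to 10 per direction were named from those called. That test used edgeR 4.0.16 (quasi-likelihood, library as block, 8 sums), with the standard error computed as the absolute log2 fold change over the square root of F. Genes of the lists were also named, and so were the parents of named copies. DESeq2 1.42.0 gave alternative size factors and an alternative test. The scripts were tested on simulated data. Sequences were read from GRCm38.p6 with Biopython 1.88 and compared with BLAST+ 2.17.0. Other tools were R 4.3.3, limma 3.58.1, Python 3.11.15, numpy 2.4.6, scipy 1.17.1, pandas 2.3.3 and matplotlib 3.10.9. Alternatives changed the limits on cells, the selection, the minimum of UMIs, the scaling, the filter, the replicate block and the libraries used.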

Additional observations from a re-analysis of the deposited data

How the results depend on the processing

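No paired analysis was possible for the comparisons of genotypes because each genotype is 1 mouse. The alternatives that leave out dividing members, or the member with the most UMIs of each gene, were added after seeing the data. The cause of the differences below was not tested.

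The share of T cells that were members changed with the selection and most with depth. With at least 1 UMI of Lef1, Dapl1 and Ccr7 it was 31.2%, 33.8%, 28.6% and 22.8% in WT, YAPKO, TAZKO and DKO. With at least 3 UMIs it was 24.9% in YAPKO, 20.2% in TAZKO and 12.8% in DKO. With the limits of 500 and 6000 read as UMIs it was 32.8% in WT, 32.6% in YAPKO, 28.2% in TAZKO and 18.9% in DKO, so that YAPKO was no longer highest. Candidate doublets were left out of the members but not of the T cells, so that share could only fall, to 25.2% in YAPKO. Thinned to 1000 UMIs it was 14.9%, 11%, 11.9% and 7.97%, and the CD8 share of CD8 and CD4 members was 78.2% in YAPKO, 70.8% in TAZKO and 78.3% in DKO.

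Between CD8 and CD4 members, 103 genes were called without a filter (69 in CD8, 34 in CD4), 4 without the replicate block (2 and 2), 6 with at least 2 UMIs of the coreceptor (5 and 1) and 28 without dividing members (11 and 17). With 1 library left out at a time the count ran from 2 to 18, 2 to 12 in CD8 and 0 to 6 in CD4 members. DESeq2 with the library as a block called 12, and edgeR with DESeq2 size factors called 11.

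Genes past 2-fold depended on the minimum of UMIs. With at least 20 UMIs they were 580 in YAPKO (385 higher, 195 lower), 1013 in TAZKO (766, 247) and 689 in DKO (567, 122). With at least 100 they were 84 in YAPKO (49, 35), 132 in TAZKO (101, 31) and 92 in DKO (73, 19). With the limits read as UMIs they were 91 in YAPKO (43 higher) and 117 in DKO (61, 56). DESeq2 size factors gave 165 lower in TAZKO. Without candidate doublets 93 remained in YAPKO (56 higher). Among CD8 members alone there were 70 in YAPKO (32 higher) and 140 in TAZKO (94, 46). Without dividing members there were 124 in YAPKO (75 higher) and 127 in DKO (93 higher), and without the member with the most UMIs of each gene 120 were higher in DKO.

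Named ratios and list medians, within 2-fold or past it, had 943 alternative values, and in 7 of these a value past 2-fold changed sign. Car1 and Retnla in DKO, at -0.54 and -0.58 without the cell with the most UMIs, are not among these 7. In YAPKO, H2ac8 was at -1.19 and Top2a at -2.78 among CD8 members, and at -0.0533 and -0.47 without dividing members. Top2a is among the 10 genes by which the dividing members were picked, so its drop there follows from the removal. Xcl1 in TAZKO was at -0.66 with at least 3 UMIs of Lef1, Dapl1 and Ccr7. In DKO the median of dividing-cell genes was at -0.15 with the limits read as UMIs, and that of NK cell markers at -0.0181 without candidate doublets. The NK cell marker Tyrobp is among the genes by which candidate doublets were picked. Of the other values 811 lay within the interval of the reported value, which is wide for lists of few genes, and 125 outside it. List medians within 2-fold changed sign more often.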

Other observations

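The genes of this paragraph were chosen after their values were seen. CT010467.1, a ribosomal RNA sequence, was at 30828, 14750, 36227 and 11955 CPM in WT, YAPKO, TAZKO and DKO. Its log2 ratios to WT were -1.06 in YAPKO, 0.23 in TAZKO and -1.37 in DKO, and -1.27, 0.08 and -1.89 in other kept cells. Lars2, the mitochondrial leucyl-tRNA synthetase, had the same order of libraries, at 347, 227, 673 and 122 CPM. The nuclear non-coding RNA Malat1 was at 22188, 19389, 25794 and 24383 CPM, above CT010467.1 in YAPKO and DKO.

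Sex-linked genes described the mice. Xist, the RNA of the inactive X chromosome, had 0 UMIs in the members of every library, while the Y-linked gene Ddx3y was at 56.7, 42.7, 104 and 64.4 CPM and Eif2s3y at 67.2, 60.0, 44.9 and 65.8 CPM. Of 5 sex-linked genes 2 were measured in each comparison and 0 were past 2-fold, with medians of -0.31, 0.12 and 0.06, the last 2 of which are below 0 (-0.05 and -0.12) with DESeq2 size factors.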
